A study of Mus musculus with 384 samples.

Results

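The 10 genes described here carry the peptide display of the major histocompatibility complex (MHC). They were taken by symbol: H2-K1, H2-D1, B2m, Tap1, Tapbp and Psmb8 for class I, and Cd74, H2-Aa, H2-Ab1 and H2-Eb1 for class II. All 10 have 1 row each among the 46517 gene rows of a TPM table of single hair follicle cells from mouse back skin. H2-K1 and H2-D1 encode class I heavy chains, which pair with β2-microglobulin, the product of B2m. Psmb8 encodes a catalytic subunit of the immunoproteasome, which cuts the peptides. Tap1 encodes part of the pump that carries them into the endoplasmic reticulum, and Tapbp encodes tapasin, which helps to load them. H2-Aa encodes the α chain, and H2-Ab1 the β chain, of the class II molecule I-A. H2-Eb1 encodes the β chain of the class II molecule I-E, and Cd74 the invariant chain that guides class II molecules to the endosome. Class I is displayed by most nucleated cells and class II mainly by dendritic cells, macrophages and B cells, although keratinocytes can be induced to carry class II by interferon γ. Quiescent stem cells of the mouse hair follicle have been described as low in class I display and in Nlrc5, the regulator that switches on class I genes.

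The cells came from mice at postnatal day 70, all labelled male, with tamoxifen-inducible Cre recombinase driven by Sox9, a transcription factor gene of hair follicle stem cells, and floxed alleles of the transcription factor genes Nfib and Nfix. Mice of the group dKO carried Sox9-CreER with NFIBfl/fl and NFIXfl/fl, and mice of the group cKO carried Sox9-CreER with NFIBfl/+ and NFIXfl/fl. Both groups also carried the reporter R26-YFPfl/fl, so the Cre, the reporter and 2 floxed Nfix alleles were common to all mice. The series text speaks of NFIB-cKO for the mice with 1 floxed Nfib allele, and the genotype labels were followed. Viable cells positive for integrin α6 and YFP were sorted singly as positive or negative for Sca-1, the surface product of Ly6a, amplified by Smart-seq2 and sequenced. Of 384 cells, 378 had at least 1000 genes at 1 TPM or more and were kept. The Sca-1-positive gate held 19 dKO cells on plate 2 and 22 cKO cells on plate 3. The Sca-1-negative gate held 93 and 61 cells on dKO plates 1 and 2, and 71, 47 and 65 cells on cKO plates 1, 2 and 3. A cell with at least 10 TPM of Cd34, a surface marker of bulge stem cells, was called Cd34-positive. By that rule 91 Sca-1-negative cells were Cd34-positive and 246 were Cd34-negative, and none of the 41 Sca-1-positive cells was Cd34-positive (highest Cd34 1.84 TPM). A share of 0 of 41 allows up to 7.32%.

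Because no label ties a cell to an animal, each genotype counts as 1 sample, no difference was tested, and all comparisons below are descriptions of size. Despite the labels, the plates were of 2 kinds by sex-linked RNA. Mean Xist was 44.5 TPM for dKO plate 1 and 51.4 and 59.8 TPM for cKO plates 1 and 2 but at most 0.102 TPM on dKO plate 2 and cKO plate 3, where 4 Y-linked genes summed to 34.1 and 41.7 TPM. Each genotype had plates of both kinds, and genotype values are also given within each kind. At least 3 of 9 hair follicle keratinocyte markers reached 10 TPM in 375 of the 378 cells, and no cell reached that count for fibroblast, endothelial, melanocyte or T cell markers. Detected genes (1 TPM or more) per cell had medians from 4807 to 5234 by plate and gate. Read depth is unknown from TPM.

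Apart from B2m (chr2:122147686-122153083) and Cd74, which lie outside it, the genes lie in the MHC on chromosome 17 of GRCm38. H2-K1 is at chr17:33996017-34000347 on the minus strand and Tapbp at chr17:33915899-33929292 on the plus strand. Tap1 (chr17:34187553-34197225) and Psmb8 (chr17:34197721-34201454) are neighbours on the plus strand. The class II genes H2-Ab1 (chr17:34257689-34269419), H2-Aa (chr17:34282744-34287823, minus strand) and H2-Eb1 (chr17:34305867-34316674) follow, and H2-D1 is at chr17:35262730-35267499.

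The promoters of H2-K1, H2-D1, B2m and H2-Aa are shown because these genes are read together below and share a known arrangement. An X2 box, a site of CREB and ATF factors, is followed by a Y box, a site of NF-Y, and on this platform NLRC5 acts on class I genes and CIITA on class II genes. Letters searched on both strands were TGACG for the X2 box core, ATTGG, or CCAAT read on the opposite strand, for the Y box, and AANNGAAA for the core of an interferon regulatory factor (IRF) site. Sequences are from RefSeq (GRCm38.p6), 5′ to 3′ on the gene's strand, from 150 to 11 bases before the annotated start, with matches in capitals. For H2-K1 the most upstream of its starts was used.
H2-K1 (chr17:34000358-34000497, minus strand): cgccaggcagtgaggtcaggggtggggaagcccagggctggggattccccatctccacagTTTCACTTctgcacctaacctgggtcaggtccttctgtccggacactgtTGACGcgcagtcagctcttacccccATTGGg
B2m (chr2:122147537-122147676, plus strand): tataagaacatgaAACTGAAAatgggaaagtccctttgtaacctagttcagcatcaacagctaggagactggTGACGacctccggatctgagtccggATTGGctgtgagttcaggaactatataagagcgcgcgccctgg
H2-Aa (chr17:34287834-34287973, minus strand): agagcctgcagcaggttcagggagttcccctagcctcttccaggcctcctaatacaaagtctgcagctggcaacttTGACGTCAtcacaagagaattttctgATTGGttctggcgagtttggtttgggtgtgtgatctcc
H2-D1, from X2 box core to Y box only (chr17:35262993-35263022, plus strand): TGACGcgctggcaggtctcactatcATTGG

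Between TGACG and ATTGG lie 20 bases in H2-K1, H2-D1 and B2m and 21 bases in H2-Aa. In H2-Aa the capitals TGACGTCA hold 2 overlapping matches, TGACG on either strand. The window of H2-D1 lies within the first exon of a longer annotated transcript, so the stretch between the boxes alone is printed. From the IRF core to the Y box the windows of H2-K1 and H2-D1 have the same length, 79 bases, and are identical at 69 of them (87.3%). An IRF core was found in the windows of H2-K1, H2-D1 and B2m, and in 11.7% of the windows of 27025 genes. TGACG was found in 12.4% of all windows and ATTGG in 24.4%. TGACG followed by ATTGG on the same strand with 15 to 30 bases between them was found in 0.196% of all windows (53 genes), among them H2-K1, H2-D1, B2m and H2-Aa. Of the other members with a window, Tap1 held TGACG alone, H2-Eb1 held ATTGG (in both directions), and Tapbp and Psmb8 held none of the 3. A match describes these letters only, and neither binding nor activity of any factor was measured.

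Among the 337 Sca-1-negative cells, taking the mean of the plate means, class I RNA was abundant and class II RNA scarce. TPM is scaled per transcript length, so levels of different genes can be set side by side. B2m stood highest at 456 TPM, before H2-K1 at 379 TPM and H2-D1 at 183.01 TPM. Tapbp followed at 87.7 TPM, Tap1 at 37.8 TPM and Psmb8 at 30.9 TPM. Of the class II genes Cd74 averaged 14.5 TPM, H2-Ab1 5.53 TPM, H2-Eb1 5.002 TPM and H2-Aa 2.14 TPM. All but H2-Aa exceeded the 5 TPM at which a gene was called measured, which left 9 members among 7060 measured genes. At 10 TPM or more, B2m was found in 99.4% of Sca-1-negative cells (95% exact interval 97.9% to 99.9%), H2-K1 in 93.5% (90.3% to 95.9%), Cd74 in 10.98% (7.85% to 14.8%) and H2-Aa in 2.97% (1.43% to 5.39%). Intervals cover counting error only.

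Reads of class I genes can be divided wrongly between copies. Of the 38-base stretches of the longest protein-coding H2-K1 transcript, 16.3% also occur in transcripts of other genes, and 12.6% in H2-D1. For H2-D1 it was 21.7%, for Tap1 1.27% and for Tapbp 2.45%, and for B2m, Psmb8, H2-Aa and H2-Ab1 it was 0. The MHC haplotype of the mice is not stated by any source used, and reads were set against the reference haplotype. The first exon of Tap1 overlaps that of Psmb9 on the other strand, and the library kit does not mark strand.

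Class I genes stood lower in the Cd34-positive cells on every plate. Summed over H2-K1, H2-D1 and B2m, they averaged 497 TPM in Cd34-positive cells against 1062 TPM in Cd34-negative cells on dKO plate 1, and 396 against 1018 TPM on dKO plate 2. On cKO plates 1, 2 and 3 the Cd34-positive cells averaged 546, 653 and 564 TPM, and the Cd34-negative cells 1235, 1498 and 1191 TPM. No plate mean of the Cd34-positive cells reached the lowest plate mean of the Cd34-negative cells, and how many of all genes show such a gap was not counted. Medians were further apart, with 469 against 1032 TPM on dKO plate 1, 215 against 1028 TPM on dKO plate 2, and 414 against 1161, 345 against 1415 and 402 against 1141 TPM on cKO plates 1, 2 and 3. The single cells overlapped: 22 of 23 and 14 of 16 Cd34-positive cells on the dKO plates, and 19 of 23, 12 of 13 and 14 of 16 on the cKO plates, lay below the median of the Cd34-negative cells of their plate, and the highest Cd34-positive cell held 1757 TPM.

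**Figure D1:**
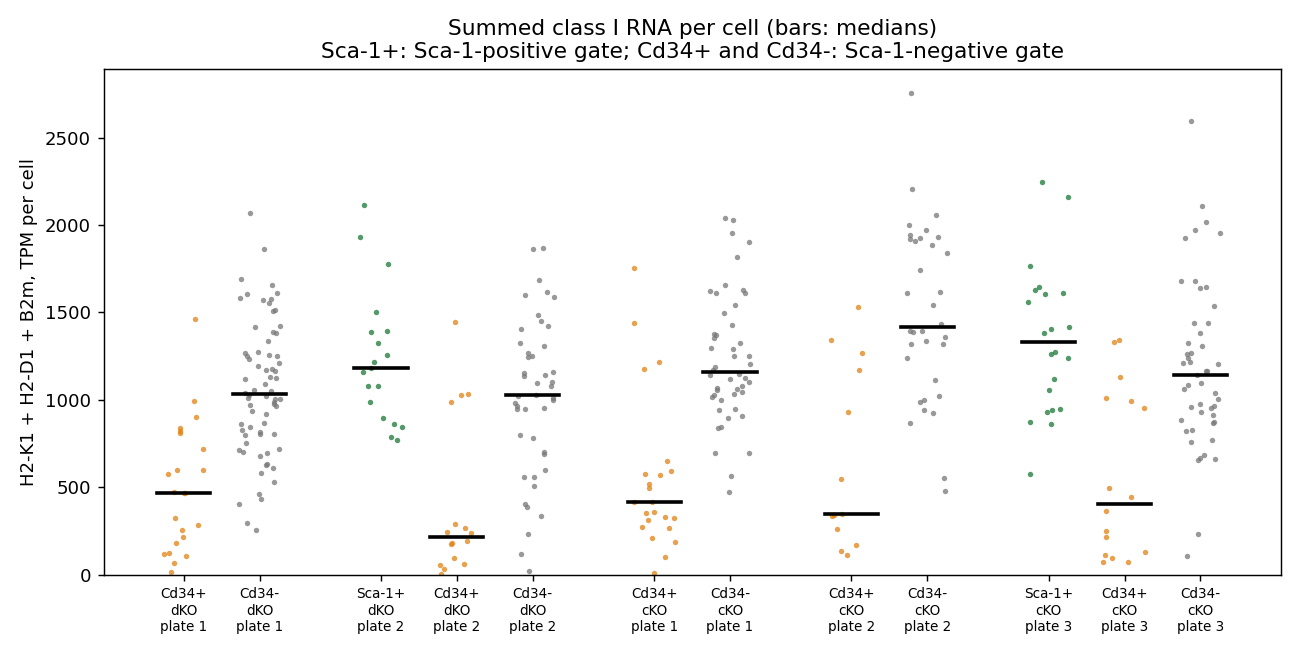
Summed TPM of H2-K1, H2-D1 and B2m in each kept cell (vertical axis) by plate, with the Sca-1-positive gate (Sca-1+) in green, Cd34-positive (Cd34+) cells of the Sca-1-negative gate in orange and Cd34-negative (Cd34-) cells in grey; bars are medians. The orange medians, 215 to 469 TPM, lie below every grey median, 1028 to 1415 TPM, while a few orange points reach the grey range.

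By the size rule, a ratio of plate-averaged TPM of at least 1.5 in the same direction on all 5 plates, 7 of the 9 measured members were lower in Cd34-positive cells and 0 were higher. Over all measured genes 9.21% were lower and 7.51% higher by the same rule (16.7% together). The median log2 ratio was -1.38 over the 9 members and 0.01 over all 7060 genes. The 7 were H2-K1, H2-D1, B2m, Tap1, Tapbp, Psmb8 and H2-Ab1. H2-Ab1, at 0 in Cd34-positive cells, reached the 5 TPM of a measured gene only through the Cd34-negative cells.

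H2-K1 averaged 194 and 148.4 TPM in the Cd34-positive cells of dKO plates 1 and 2 and 196, 292 and 198 TPM in those of cKO plates 1, 2 and 3. The Cd34-negative cells of these plates, in the same order, held 376, 365, 463, 546 and 475 TPM. The means were 206 ± 52.4 TPM and 445 ± 74.95 TPM (SD over 5 plates, which may share animals), 2.16-fold lower. H2-D1 averaged 65.9 and 71.2 TPM in Cd34-positive cells on the dKO plates and 98.8, 137.9 and 110.9 TPM on the cKO plates. Its Cd34-negative cells held 184.3, 202, 225, 254 and 211 TPM, and the ratio of the means was 2.21-fold lower in Cd34-positive cells. Both heavy chains were lower in Cd34-positive cells on all 5 plates, as were 12.2% of all measured genes. Every Cd34-positive plate mean of both was also below every Cd34-negative one, and the share of all genes that do so was not counted. B2m held 237, 176.1, 250.5, 224 and 255 TPM in Cd34-positive cells and 502, 452, 547, 699 and 505 TPM in Cd34-negative cells of the 5 plates, 2.36-fold lower. The light chain was lower by a factor close to those of the heavy chains.

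The genes that make and carry the peptides fell with them. Tap1 averaged 15.5, 23.2, 15.99, 13.5 and 11.4 TPM in Cd34-positive cells on dKO plates 1 and 2 and cKO plates 1, 2 and 3, and 39.2, 31.96, 53.7, 53.5 and 51.9 TPM in Cd34-negative cells. Its mean was 2.78-fold lower, with the smallest difference on dKO plate 2 (1.36-fold). Psmb8 averaged 9.79, 13.6, 8.20, 21.3 and 15.8 TPM in Cd34-positive cells against 42.1, 25.98, 42.5, 39.9 and 36.5 TPM in Cd34-negative cells, 2.61-fold lower. Tapbp, whose plate means overlapped, held 58.1 ± 10.2 TPM in Cd34-positive cells and 98.6 ± 15.6 TPM in Cd34-negative cells (SD, 5 plates), 1.69-fold lower. The median Psmb8 level of Cd34-positive cells was 1.74 TPM on dKO plate 1 and 0 on the other 4 plates.

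**Figure D2:**
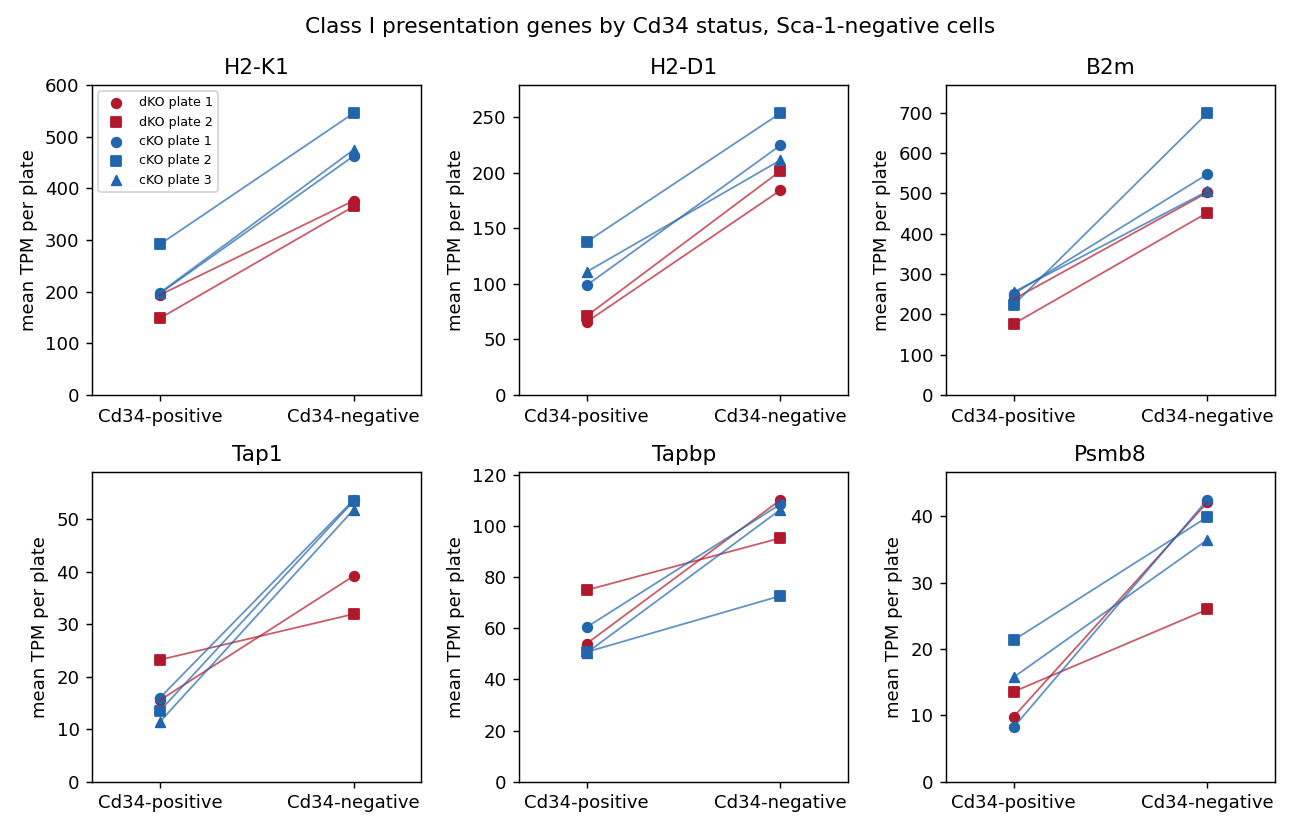
Mean TPM of the 6 class I genes per plate (vertical axes, linear from 0) in Cd34-positive cells, left, and Cd34-negative cells, right, of the Sca-1-negative gate; lines join the means of a plate, red for dKO and blue for cKO. All 30 lines rise to the right, and those of dKO plate 2 are the flattest for Tap1, Tapbp and Psmb8.

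Few Cd34-positive cells held class II RNA. H2-Ab1 was listed at 0 in all 91 Cd34-positive cells, which allows a share of up to 3.30%, and averaged 2.09, 1.80, 16.7, 12.1 and 6.27 TPM in the Cd34-negative cells of dKO plates 1 and 2 and cKO plates 1, 2 and 3. H2-Aa was also listed at 0 in all 91, and averaged 3.07 TPM in Cd34-negative cells. Cd74 reached 10 TPM in 1 of 91 Cd34-positive cells (1.099%, interval 0.0278% to 5.97%) and in 36 of 246 Cd34-negative cells (14.6%, 10.5% to 19.7%). H2-Eb1 reached it in 1 of 91 Cd34-positive cells and 25 of 246 Cd34-negative cells. Cd74 and H2-Eb1 did not pass the size rule because on dKO plate 2 the Cd34-positive mean was slightly above the Cd34-negative one, at 4.64 against 4.16 TPM for Cd74 and 0.161 against 0.101 TPM for H2-Eb1.

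Other measures moved with Cd34 status, and their part in the difference was not tested. Cd34-positive cells had a median of 4822 detected genes against 5137 in Cd34-negative cells. ERCC spike-in RNA took 5.14% of the TPM of Cd34-positive cells and 3.71% of that of Cd34-negative cells. Krt14, a basal keratin, averaged 205 against 966 TPM, Krt15, a bulge keratin, 782 against 257 TPM, and Ly6a 0.301 against 38.1 TPM. When cells were weighted equally over classes of detected genes, 7 members were again lower. With Cd34 status set at 1 TPM in place of 10 TPM the count of members past the rule was 3 (B2m, Tap1 and Cd74).

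Most of the wider class I list moved the same way. Of its 16 genes 12 were measured, and 8 were lower in Cd34-positive cells and 0 higher, with a median log2 ratio of -0.96. The largest ratios belonged to H2-Q7 and H2-Q4, non-classical class I genes, at 41.97 against 172.5 TPM and 24.3 against 95.9 TPM. Nlrc5, the class I regulator, averaged 4.55 TPM in Cd34-positive cells and 19.7 TPM in Cd34-negative cells. Psmb9, another immunoproteasome subunit, averaged 4.15 and 17.2 TPM. Among the measured genes that did not pass, H2-T23 was near level, at 47.6 against 46.7 TPM. Calr, Canx and Pdia3 averaged lower in Cd34-positive cells without passing the rule. H2-Q7 and H2-Q4 share sequence with H2-K1 and H2-D1, so their separate values are uncertain. Of the interferon list 12 of 24 genes were measured, and 4 were lower and 0 higher, with a median log2 ratio of -0.59. They were Ifngr1 and Ifngr2, the chains of the interferon γ receptor (4.21 against 22.2 TPM and 2.05 against 6.25 TPM), Ifitm3, a membrane protein against viruses (46.9 against 144.97 TPM), and Irgm1, an interferon-induced GTPase (1.84 against 7.70 TPM). The class II list had 4 of 13 genes measured, of which 2 were higher in Cd34-positive cells and 0 lower. Ctsl, a lysosomal protease, averaged 13.03 against 3.81 TPM, and H2-DMb1, part of the class II peptide exchanger, 13.2 against 4.97 TPM.

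Between the genotypes, H2-Ab1 and H2-Eb1 of class II averaged lower in dKO cells of the Sca-1-negative gate. They reached the 5 TPM of a measured gene only through the cKO plates. None of the 6 class I genes passed the size rule in either direction. H2-K1 averaged 331 and 308 TPM on dKO plates 1 and 2, against 376, 475 and 407 TPM on cKO plates 1, 2 and 3. H2-D1 averaged 155.03 and 167.5 TPM on the dKO plates and 184.05, 222 and 187 TPM on the cKO plates. B2m averaged 436 and 379 TPM on the dKO plates and 451, 567 and 443 TPM on the cKO plates, and Tap1 33.4 and 29.7 TPM on the dKO plates and 41.5, 42.5 and 41.9 TPM on the cKO plates. For these 4 genes both dKO plates lay below all 3 cKO plates, as they did for 16.5% of all measured genes, and the ratios (0.76, 0.82, 0.84 and 0.76) did not reach the size rule. The median log2 ratio of all measured genes was -0.12, and these 4 stood at -0.39, -0.29, -0.26 and -0.40. Tapbp, at 93.1 ± 4.50 TPM in dKO and 84.1 ± 15.1 TPM in cKO (SD over 2 and 3 plates), and Psmb8, at 28.4 ± 8.07 TPM and 32.5 ± 1.96 TPM, had overlapping plates.

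By the size rule between genotypes, a ratio of at least 1.5 and plates that do not overlap, neither as mean TPM nor as mean log2(TPM + 1), 2 of the 9 measured members were lower in dKO and 0 were higher. Over all measured genes 3.95% were lower and 1.77% higher (5.72% together). Of the genes past the rule 30.9% were higher in dKO, and 56.5% with size factors per plate. H2-Ab1 averaged 1.57 and 1.33 TPM on the dKO plates and 11.3, 8.74 and 4.73 TPM on the cKO plates, 3.78-fold lower in dKO. H2-Eb1 averaged 1.501 and 0.117 TPM on the dKO plates and 10.9, 7.23 and 5.28 TPM on the cKO plates, 4.86-fold lower. Both genes lay below 5 TPM in dKO (means 1.45 and 0.809 TPM), so only their cKO level (8.25 and 7.80 TPM) brought them into the count. A call of lower was thus favoured by the filter, and the count of 2 is no support of its own. Cd74 averaged 8.21 and 4.29 TPM against 27.01, 24.8 and 8.38 TPM, and its plates overlapped on the log scale. H2-Aa, not measured by the rule, averaged 0 and 0.844 TPM on the dKO plates and 6.76, 2.44 and 0.638 TPM on the cKO plates. The count rested on few cells: without cKO plate 1 or without cKO plate 2 it was 0, and it was also 0 when the highest 5% of cells of each gene, or the cells rich in class II RNA described below, were left out.

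**Figure D3:**
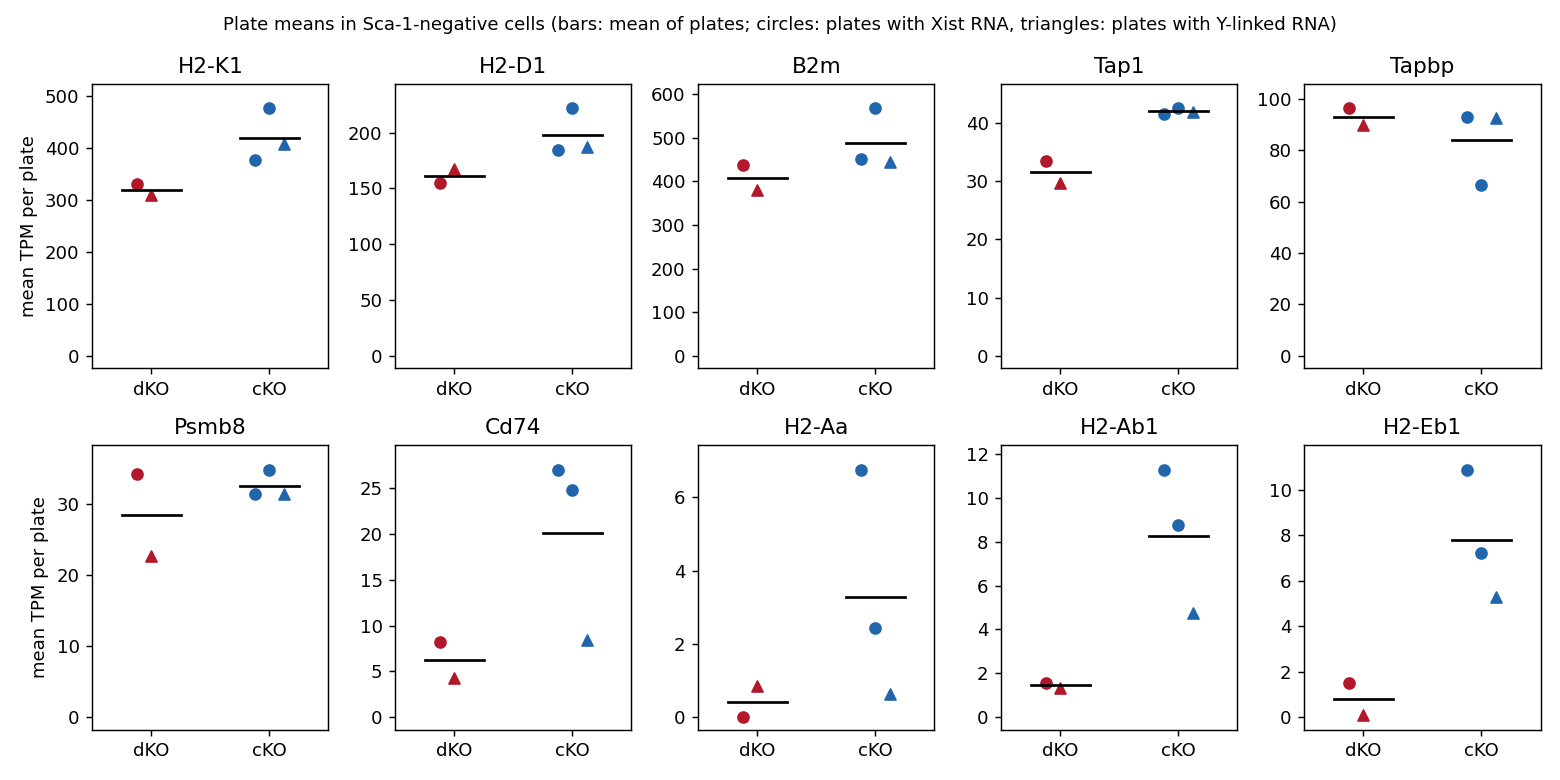
Mean TPM per plate in Sca-1-negative cells (vertical axes, linear) of the 10 genes, dKO plates in red at the left and cKO plates in blue at the right of each panel; bars are means of plates, circles are plates with Xist RNA and triangles plates with Y-linked RNA. The dKO points lie below all cKO points for H2-K1, H2-D1, B2m, Tap1, Cd74, H2-Ab1 and H2-Eb1, with the widest gaps for H2-Ab1 and H2-Eb1.

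Within the kinds of plates, H2-K1 had a ratio of 0.78 on the plates with Xist RNA and 0.76 on those with Y-linked RNA, and B2m of 0.86 on both. The log2 ratios of H2-K1 were -0.36 and -0.40 and those of B2m -0.22 and -0.22, beside medians over all measured genes of -0.23 with Xist RNA and 0.04 with Y-linked RNA, so with Xist RNA B2m stood at the median of all genes. H2-Ab1 averaged 1.57 TPM in dKO and 10.01 TPM in cKO on the plates with Xist RNA, and 1.33 and 4.73 TPM where Y-linked RNA was found. H2-Eb1 averaged 1.501 and 9.06 TPM with Xist RNA and 0.117 and 5.28 TPM with Y-linked RNA. Psmb8 had a ratio of 1.03 with Xist RNA and 0.73 with Y-linked RNA. The mean class I sum was lower in dKO within either Cd34 status, at 446 against 588 TPM in Cd34-positive cells and 1040.4 against 1308 TPM in Cd34-negative cells. In Cd34-positive cells the medians overlapped, with 469 and 215 TPM on the dKO plates and 414, 345 and 402 TPM on the cKO plates. Plate means of B2m overlapped there as well. The share of Cd34-positive cells was 25.3% in dKO and 28.4% in cKO. Among Cd34-positive cells alone, H2-D1 was 1.68-fold lower in dKO (68.5 against 115.9 TPM). Tap1 went the other way there, with 19.4 TPM in dKO and 13.6 TPM in cKO, and so did Cd74, with 2.32 and 0.0533 TPM, although the plates of the genotypes overlapped for both. Of the other class I genes 1 of 12 measured was lower in dKO, H2-Q7, with 100.997 TPM in dKO and 161.1 TPM in cKO. Of the 4 measured class II list genes Rfx5, a subunit of the factor that binds the X box, was lower, with 8.05 against 16.1 TPM. Of the interferon list, Ifngr1 was lower in dKO (12.5 against 20.5 TPM). That list is incomplete here, since the values of 1 of its genes are not reported.

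Sca-1-positive cells stood higher for class I on both plates that hold them. On dKO plate 2 the class I sum averaged 1240 TPM in Sca-1-positive cells and 855 TPM in Sca-1-negative cells. On cKO plate 3 it averaged 1341 TPM in Sca-1-positive and 1037 TPM in Sca-1-negative cells. The lowest Sca-1-positive cell held 770.2 TPM on dKO plate 2 and the lowest on cKO plate 3 held 574 TPM, against 3.48 and 73.7 TPM for the lowest Sca-1-negative cell. The Sca-1-negative gate includes the Cd34-positive cells. Against the Cd34-negative cells of that gate, with 1018 TPM for dKO plate 2 and 1191 TPM for cKO plate 3, the Sca-1-positive means were closer. The Sca-1-positive cells also differed in keratins, with Krt14 at 2821 against 577 TPM on dKO plate 2 and 2294 against 806 TPM on cKO plate 3, and its part was not tested.

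By the size rule for gates, means of log2(TPM + 1) 0.5 or more apart together with a ratio of 1.5 or more, 3 of 9 measured members were higher in Sca-1-positive cells on dKO plate 2 and 0 lower. Among all measured genes 7.59% were higher and 28.2% lower there (35.8% together). Of the genes past the rule 21.2% were higher in Sca-1-positive cells, and 41.8% with size factors. H2-D1 averaged 264 TPM in Sca-1-positive and 167.5 TPM in Sca-1-negative cells, Psmb8 39.3 and 22.7 TPM, and H2-Eb1 2.31 and 0.117 TPM. H2-K1 was just short of the ratio, at 463 against 308 TPM. On cKO plate 3, 0 of 9 members passed the rule, where 7.76% of all genes were higher and 20.7% lower (28.5% together). Of the genes past the rule 27.3% were higher, and 39.6% with size factors. There H2-D1 averaged 259 TPM in Sca-1-positive and 187 TPM in Sca-1-negative cells, H2-K1 491 and 407 TPM, B2m 591 and 443 TPM and Psmb8 41.6 and 31.4 TPM. The ratio was above 1 for all 9 (with the highest 5% of cells left out it was below 1 for Cd74 and H2-Ab1), and the median log2 ratio was 0.40 against -0.24 over all genes. On dKO plate 2 these medians were 0.43 and -0.39.

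In the lists, Psmb9 was higher in Sca-1-positive cells on both plates, with 14.8 against 9.44 TPM on dKO plate 2 and 34.3 against 14.4 TPM on cKO plate 3. Nlrc5 was lower on dKO plate 2 (6.96 against 14.4 TPM) and higher on cKO plate 3 (25.6 against 16.1 TPM). H2-T23, a non-classical class I gene, was lower on dKO plate 2 (16.8 against 43.4 TPM), and Psme2, a proteasome activator subunit, was higher on cKO plate 3 (72.9 against 45.4 TPM). In all, 1 of 12 class I list genes was higher and 2 were lower on dKO plate 2, and 3 were higher and 0 lower on cKO plate 3. Of 12 interferon genes 3 were higher and 2 lower on dKO plate 2, and 4 were higher and 0 lower on cKO plate 3. Ifngr1 was higher on both, with 89.4 against 11.5 TPM on dKO plate 2 and 44.5 against 23.1 TPM on cKO plate 3. Ifitm3 was higher on dKO plate 2 (167.5 against 103.03 TPM), where Ifnar1, a chain of the type I interferon receptor, was lower (3.90 against 15.6 TPM). Ifngr2 was higher on both plates as well, with 9.02 against 5.54 TPM on dKO plate 2 and 15.1 against 3.74 TPM on cKO plate 3. Irf1, a transcription factor of the interferon response, was higher on cKO plate 3 (19.3 against 11.03 TPM). Of the 4 measured class II list genes, Ifi30, a lysosomal thiol reductase, was higher (22.9 against 12.3 TPM) and H2-DMb1 lower (2.68 against 8.09 TPM) on dKO plate 2, and none passed on cKO plate 3.

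Between genotypes within the Sca-1-positive gate, 1 of 9 measured members was lower in dKO and 0 were higher, where 14.7% of all genes were lower and 11.2% higher (25.9% together). It was H2-Eb1, at 2.31 TPM in 19 dKO cells and 7.70 TPM in 22 cKO cells, found at 10 TPM or more in 2 of 19 cells (10.5%, interval 1.30% to 33.1%) and 8 of 22 cells (36.4%, 17.2% to 59.3%). Only Sca-1-negative cKO cells had brought it to the 5 TPM of a measured gene. H2-K1 averaged 463 and 491 TPM, H2-D1 264 and 259 TPM, and B2m 513 and 591 TPM in dKO and cKO cells. Each is 1 plate per genotype. In the class I list 4 of 12 genes were lower and 1 higher, with Nlrc5 (6.96 against 25.6 TPM), Psmb9 (14.8 against 34.3 TPM), H2-T23 (16.8 against 30.7 TPM) and Tap2 (11.5 against 21.1 TPM) the most apart. In the interferon list 3 of 12 were higher and 3 lower, among them Ifngr1 (89.4 against 44.5 TPM), Ifnar1 (3.90 against 15.4 TPM) and Irf1 (9.40 against 19.3 TPM). Ifi30 of the class II list was higher, with 22.9 against 13.9 TPM.

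Class II RNA sat in a minority of cells. The sum of the 4 class II members was 0 in 269 of 378 cells. In 12 cells at least 3 of the 4 reached 10 TPM, and these 12 held 61.1% of all class II TPM. They were 2 dKO cells (1.30% of the kept Sca-1-negative dKO cells, interval 0.158% to 4.61%) and 9 cKO cells (4.92% of the kept Sca-1-negative cKO cells, 2.27% to 9.13%) of the Sca-1-negative gate, and 0 of 19 dKO cells and 1 of 22 cKO cells of the Sca-1-positive gate. None of the 12 was Cd34-positive. At least 1 class II member reached 10 TPM in 19.4% and 6.56% of Sca-1-negative cells on dKO plates 1 and 2, and in 23.9%, 23.4% and 23.1% on cKO plates 1, 2 and 3. In Sca-1-positive cells it was 21.1% on dKO plate 2 (6.05% to 45.6%) and 59.1% on cKO plate 3 (36.4% to 79.3%).

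The 4 cells that carried all 4 class II members were Sca-1-negative cKO cells, 3 on plate 1 and 1 on plate 2. Their Cd74 was 639, 524 and 409 TPM on plate 1 and 689 TPM on plate 2, beside H2-Ab1 of 255, 349 and 95.1 TPM and 257 TPM, and H2-Aa of 105.8, 125.7 and 43.4 TPM and 101.2 TPM. The same cells held 820, 1018, 631 and 492 TPM of the keratin Krt5 and 849, 721, 692 and 1008 TPM of Krt14. Their class I sums were 1900, 2029, 1627 and 1360 TPM, above the median of all kept cells, 1034 TPM. The transcript of Ciita, the class II regulator, was listed at 0 in all 12 cells, as was Ptprc, but some held other immune markers, given below. Of the 12 cells, 11 held over 60 TPM of Krt5 together with over 190 TPM of Krt14. The exception was a dKO plate 2 cell with 208 TPM of Krt5, 0.94 TPM of Krt14 and 1944 TPM of Krt79, a keratin of the upper follicle. The Sca-1-positive cell of cKO plate 3 had the lowest Krt5 of the 12, 60.8 TPM, beside 1415 TPM of Krt14 and 995 TPM of Krt79.

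**Figure D4:**
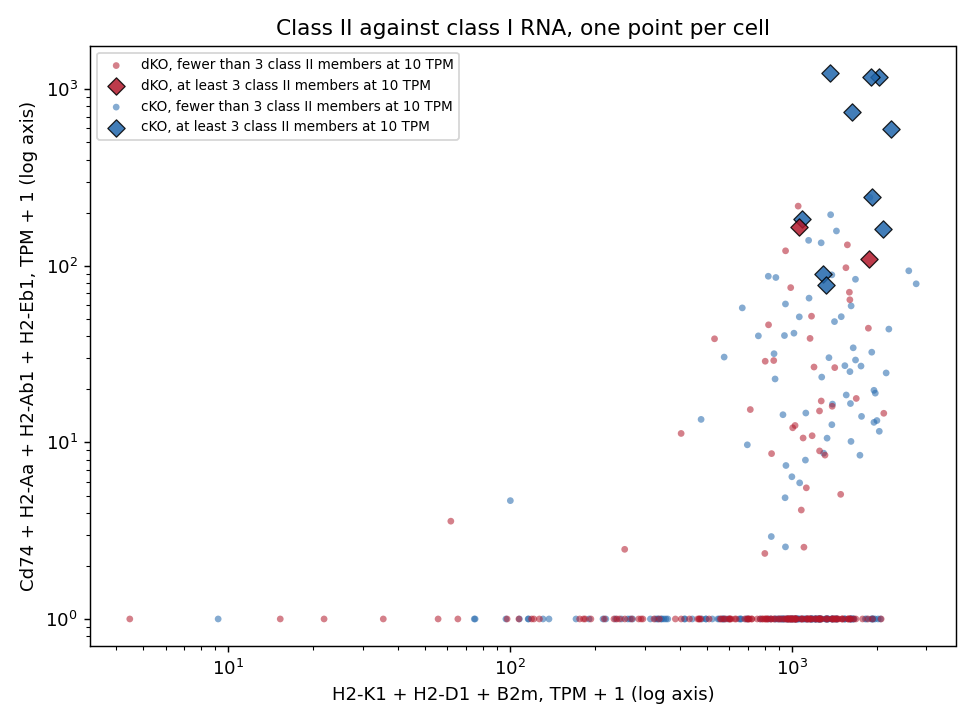
Summed TPM + 1 of the 4 class II genes (vertical log axis) against summed TPM + 1 of H2-K1, H2-D1 and B2m (horizontal log axis), 1 point per kept cell, dKO red and cKO blue; diamonds mark the 12 cells with at least 3 class II members at 10 TPM. The diamonds, none of them Cd34-positive, lie to the right, at class I sums of 1055 to 2249 TPM, and the row of points at the bottom is the 269 cells with a class II sum of 0.

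Immune markers were scarce, with at least 1 of 20 at 10 TPM in 60 of 378 cells. Ptprc, which encodes the leukocyte antigen CD45, reached 10 TPM in 0 of 378 cells, which allows a share of up to 0.794%, was above 0 in 2 cells and was at most 1.08 TPM. It was also below 10 TPM in the 6 cells left out. Of the 20 immune markers Lyz2 and Itgax were listed at 0 in every kept cell, and none averaged the 5 TPM of a measured gene. Cd207, the marker of Langerhans cells, the dendritic cells of the epidermis, was at most 1.80 TPM. At least 3 immune markers reached 10 TPM in 2 cells, both Cd34-negative cKO cells with no class II member at 10 TPM. The cell on cKO plate 2 carried Cd52, Cd3e and Rac2 beside 2309 TPM of Krt5, and the cell on cKO plate 3 carried Coro1a, Cd3e and Cd3g beside 790 TPM of Krt5. The markers with the highest means were Mfge8 (2.39 TPM, in 21 cells) and Cd68 (1.69 TPM, in 17 cells), which other cell types also express. Among the 12 cells rich in class II RNA, Cd68 reached 10 TPM in a dKO plate 1 cell (with Mfge8) and a dKO plate 2 cell. Cd68 also did so in a Sca-1-positive and a Sca-1-negative cell of cKO plate 3. Fcer1g did so in a cell of cKO plate 1, and Tyrobp in another Sca-1-negative cell of cKO plate 3, with Cd207 at 1.80 TPM. The rest of the 12 held no immune marker at 10 TPM. A marker at that level was thus more frequent among the 12 than among all 378 cells, a comparison of few cells that was not tested. The summed level of the 20 markers averaged 5.20 and 6.02 TPM on dKO plates 1 and 2 and 10.1, 14.6 and 8.90 TPM on cKO plates 1, 2 and 3 in Sca-1-negative cells, and 2.71 and 5.81 TPM in Sca-1-positive dKO and cKO cells. It was 12.8 TPM in Cd34-positive and 6.80 TPM in Cd34-negative cells. At least 3 of the 7 Langerhans markers, 4 of which are the class II members, were found in 17 cells. Leaving out cells with at least 3 immune markers changed no count of members past a size rule.

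Across the Sca-1-negative cells the class I genes varied together within plates. The rank correlation between cells, averaged over the 5 plates, was 0.68 for H2-K1 with H2-D1, 0.65 for H2-K1 with B2m and 0.61 for H2-D1 with B2m. Psmb8 correlated with H2-K1 at 0.57 and Tap1 with B2m at 0.49, while Tapbp reached 0.34 at most, with Psmb8. With the number of detected genes the correlation was 0.13 for H2-K1 and 0.24 for B2m. Cd74 correlated at 0.48 with H2-Ab1 and 0.29 with H2-Eb1. These values describe 337 cells that share plates, libraries and the scaling of TPM. The cells include both Cd34-positive and Cd34-negative ones, which differ in class I level, and the part of that difference in the correlations was not tested.

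The genes whose levels were most like the class I sum, by the mean within-plate rank correlation among 6255 genes, were H2-Q7 (0.75), H2-Q6 (0.72), Ly6e (0.68), H2-Q5 (0.64) and H2-Q4 (0.62). The median over all these genes was 0.04. The H2-Q genes are class I relatives that share sequence with H2-K1 and H2-D1. Ly6e, which encodes a membrane-anchored protein, lies outside the MHC family. For the class II sum they were Skint3 (0.40), Slit3 (0.39), Alox12e (0.38), Ly6e (0.38) and Fcgbp (0.37), against a median of 0.04, and their correlations with the number of detected genes, 0.24 to 0.34, were of similar size. Cd34 itself stood at -0.45 with the class I sum and -0.26 with the class II sum, and Ly6a at 0.37 and 0.17. All these correlations were taken over Cd34-positive and Cd34-negative cells together.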

How the data were processed

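TPM values of 384 single Smart-seq2 libraries, as deposited by the authors, were used. Per the submitters' processing notes they were made with Bowtie2 2.2.9 and RSEM 1.2.30 on mm10 (GRCm38); RSEM divides reads shared by several genes by a model, and TPM keeps no read depth. Every column was tied to a sample by its name, with 0 columns left over. Cells with at least 1000 genes at 1 TPM were kept. Means per plate were averaged with equal weight, 1 TPM was added to both means before a ratio, so ratios of low genes are understated, and a gene counted as measured from a mean over plates of 5 TPM. The size rules stand with each comparison; no test was run, since no animal is named. Shares carry exact (Clopper-Pearson) 95% intervals, and for a share of 0 the upper limit is that of 3 cells. Genes, lists and rules were chosen with earlier results of these data known. Named were the 10 members, from each list at most 4 genes past the size rule with the largest ratios (or the 2 with the highest TPM), the 5 genes most like each sum, and Ptprc, Cd34 and Ly6a; other genes were chosen after their values were seen. Positions and transcripts came from GENCODE M21 (GRCm38), and promoters from RefSeq (GRCm38.p6), with 9 of 10 members matched and 8 searched. Cells were compared in Python 3.11.15 with numpy 2.4.6, pandas 2.3.3 and scipy 1.17.1, and the size rules were checked on simulated plates. The values of 1 gene of the interferon list are not reported here.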

Additional observations from a re-analysis of the deposited data

Results flagged for a closer look

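Cd74 went opposite ways with the Sca-1 gate in the 2 genotypes. On dKO plate 2 it averaged 1.42 TPM in Sca-1-positive and 4.29 TPM in Sca-1-negative cells, a log2 ratio of -1.13. On cKO plate 3 it averaged 24.4 TPM in Sca-1-positive and 8.38 TPM in Sca-1-negative cells, a log2 ratio of 1.44. The difference between the log2 ratios was -2.57 and was not tested. The median was 0 in all 4 groups, and a single Sca-1-positive cell of cKO plate 3 held 488 TPM. Without the highest 5% of cells both log2 ratios changed sign, to 0.43 on dKO plate 2 and -0.70 on cKO plate 3.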

How the results depend on the processing

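Counts here are of any members past a rule, which need not be those reported. In Sca-1-negative dKO against cKO cells the count was 2 as reported. It was 1 with no filter on cells, with size factors per plate or on the plates with Y-linked RNA alone. It was also 1, a choice made after seeing the data, in Cd34-positive cells alone. There the member was H2-D1, and H2-Ab1 was at 0 in both genotypes. On the plates with Y-linked RNA H2-Ab1 and H2-Eb1 averaged below the 5 TPM of a measured gene. The count was 0 with genes of at least 20 TPM, without the highest 5% of cells and, also chosen after seeing the data, without the cells rich in class II RNA. Leaving out each plate gave 0 to 3. By gate on dKO plate 2, 1 of the 3 remained at a ratio of 2. By gate on cKO plate 3, where 0 passed, 1 passed with no filter on cells, no filter on genes or the highest 5% of cells left out, and 3 with ERCC and the 5 most abundant rows removed. In Sca-1-positive cells between genotypes, where 1 passed, the count was 0 with a pseudocount of 10, genes of at least 20 TPM, size factors or the highest 5% left out, 2 with no filter on genes or with classes of detected genes weighted equally, and 3 with ERCC and the top rows removed. By Cd34 status, where 7 passed, 3 passed at 1 TPM of Cd34, and the other alternatives gave 6 to 9 (leaving out plates 6 to 9). A higher TPM limit for measured genes removes members by construction, and the cause of the other changes was not tested. No member past a rule changed direction under the alternatives run for it, although H2-Ab1, at 0 in all Cd34-positive cells, gave no direction there. Size factors moved the median log2 ratio of all genes to -0.02 between genotypes and to -0.17 by gate on dKO plate 2, and removing ERCC and the top rows moved the share of genes past the rule that were higher in dKO to 60.4%. Class II counts rest on few cells, and a mean of few cells limits their precision. No paired analysis was possible because the labels give plates of the genotypes no shared animal, and no test was run.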

Other observations

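Within the Cd34-positive cells, those with at least 10 TPM of Lgr5, a receptor gene of hair follicle stem cells, had a lower mean class I sum than those without it on all 5 plates, a split chosen after the data were seen. The medians were lower on 4 of the plates and higher on dKO plate 2, with 244 TPM in Lgr5-positive and 193 TPM in Lgr5-negative cells. The class I sum averaged 413 TPM in 12 Lgr5-positive and 588 TPM in 11 Lgr5-negative cells on dKO plate 1, and 331 TPM in 5 and 425 TPM in 11 cells on dKO plate 2. On cKO plates 1, 2 and 3 it averaged 359, 482 and 310 TPM in 17, 9 and 9 Lgr5-positive cells, against 1074, 1038 and 890.3 TPM in 6, 4 and 7 Lgr5-negative cells. The few Cd34-negative cells with Lgr5 averaged 418 and 368 TPM on dKO plates 1 and 2 (4 cells each) and 1201 TPM on cKO plate 3 (5 cells).

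Genes at the other end of the correlations with the class I sum, also chosen after their values were seen, were Dkk3 (-0.60), which encodes a secreted protein of the Dickkopf family, Il31ra (-0.58), a cytokine receptor, Col6a1 (-0.57), a collagen VI chain, Creb5 (-0.55), a transcription factor, and Cxcl14 (-0.53), a chemokine. Lgr5 stood at -0.49. Both Cd34-positive and Cd34-negative cells entered these correlations. Nlrc5 was 8th from the top with 0.51.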
